A study of Mus musculus with 6 samples.

Results

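The genes described here fold proteins in the endoplasmic reticulum (ER), clear misfolded ones, or sense and answer folding stress. They were chosen by name, as a list of 30 gene symbols, and every probe annotated with one of these symbols was taken. Of the 30 genes, 29 had at least 1 named probe (52 probes in all), out of 19057 named genes on the array. Dnajb11 was not measured by a named probe. Total RNA was taken from the lining of the acid-secreting part of the stomach (fundic gastric mucosa) of C57Bl/6Ncr mice aged 3 months, and hybridised to Illumina bead arrays. The 2 groups were wild type mice and mice lacking Lasp1 (Lasp1 knockout), with 3 arrays each. Lasp1 encodes an actin-binding protein that is abundant in acid-secreting parietal cells, and the study asked what its deletion does to gene expression in this mucosa. The labels give neither the deleted part of the gene nor the animals behind each array. The p-values therefore reflect only how much these samples vary, which may be technical.

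Secreted and membrane proteins enter the ER through the Sec61 channel and are folded there by chaperones, by lectins that bind their sugar chains, and by protein disulfide isomerases. Proteins that fail are pulled back to the cytosol and degraded (ER-associated degradation). When unfolded protein accumulates, the membrane sensors IRE1 (gene Ern1), PERK (gene Eif2ak3) and ATF6 start the unfolded protein response, which raises the transcription of chaperone and degradation genes. The zymogen-secreting chief cells of the stomach and the acinar cells of the pancreas are both rich in this machinery.

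Facts of the whole series bear on these genes in several ways. On the authors' scale each array has a median intensity of 1000 with no background subtracted, so differences of dim genes are understated. The fundic origin of the RNA was plain: the parietal cell gene Atp4a read 438485 to 539091 and the chief cell gene Pgc 499744 to 613674 over the 6 arrays. Lasp1 read 270957, 275068 and 177315 in wild type samples and 88521, 111002 and 89823 in knockout samples, replicates 1 to 3 in each case. Its signal was lower in every knockout sample and did not vanish. Wild type replicate 3 carried pancreatic transcripts, with a summed intensity of 23 pancreatic acinar genes of 11058895 against 1427239 to 1986696 on the others. Among them Pla2g1b (533887 to 677045) and Clps (513831 to 635559) were bright on all 6 arrays. Knockout replicate 3 held pancreatic transcripts to a lesser degree. The mean log2 value of the pancreatic acinar genes was 18.44 on wild type replicate 3, 14 on knockout replicate 3 and 12.52 to 12.64 on the rest. Squamous transcripts were high on knockout replicate 1 and wild type replicate 2 (sums of 12 genes of 1250836 and 695761, against at most 35715). Knockout replicate 1 was also highest in 8 smooth muscle genes (254221, against 39856 to 111944). In bulk tissue, fewer cells of a type and less RNA per cell cannot be told apart.

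The promoters of several of these genes share a sequence. The genes were listed for their part in ER folding and stress, so how often they hold a stress response element is a description and not a test. The ER stress response element (ERSE) binds the factors NF-Y and ATF6 and was searched as CCAAT, 9 bases of any kind and CCACG on both strands, in the 250 bases before each annotated gene start (RefSeq, GRCm38.p6). It occurred in 9 of the 26 genes with a promoter entry, and in 0.113% of all 32851 promoters searched, or 35 of 27025 genes. Each of the following stretches gives the match with 20 bases on either side, 5′ to 3′ on the strand of the gene, with the letters fixed by the motif in capitals. They are shown because the element recurs in chaperone, lectin and degradation genes whose levels are described next. A match that reads CGTGG before ATTGG lies on the opposite strand.
Hspa5: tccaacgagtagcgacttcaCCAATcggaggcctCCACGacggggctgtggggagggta
Hsp90b1 distal: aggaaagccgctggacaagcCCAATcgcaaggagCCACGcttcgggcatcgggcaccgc
Hsp90b1 proximal: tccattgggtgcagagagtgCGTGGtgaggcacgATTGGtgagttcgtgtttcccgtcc
Calr: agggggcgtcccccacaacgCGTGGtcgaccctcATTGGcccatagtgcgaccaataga
Canx: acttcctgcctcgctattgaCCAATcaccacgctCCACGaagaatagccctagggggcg
Dnajc3: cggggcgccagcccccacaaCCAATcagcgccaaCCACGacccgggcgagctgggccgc
Pdia6: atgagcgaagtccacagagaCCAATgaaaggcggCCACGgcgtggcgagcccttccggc
Creld2: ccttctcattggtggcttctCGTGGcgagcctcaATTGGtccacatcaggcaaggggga
Syvn1: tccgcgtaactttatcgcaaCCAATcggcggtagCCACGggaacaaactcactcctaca
Derl3: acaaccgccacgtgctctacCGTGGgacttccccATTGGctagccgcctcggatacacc
Herpud1, second form: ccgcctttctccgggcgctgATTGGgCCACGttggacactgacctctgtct

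The stretches lie at chr2:34772005-34772063 (plus strand) for Hspa5, and at chr10:86705618-86705676 and chr10:86705513-86705571 (minus strand) for Hsp90b1. Those of Calr and Canx lie at chr8:84847055-84847113 and chr11:50325780-50325838, both on the minus strand. Dnajc3 (chr14:118937807-118937865), Pdia6 (chr12:17266471-17266529), Creld2 (chr15:88819500-88819558), Syvn1 (chr19:6046512-6046570), Derl3 (chr10:75893222-75893280) and Herpud1 (chr8:94386357-94386407) are on the plus strand. The matches began 44 bases before the annotated start in Syvn1, the nearest, 65 in Hspa5 and 212 in the distal copy of Hsp90b1, the farthest. Herpud1 held the second form of the element, searched as ATTGG, 1 base of any kind and CCACG, which occurred in 0.0304% of all promoters. The XBP1-binding element TGACGTGG was found in none of the 26 genes, within this window, and in 0.563% of all promoters. The letters TGATGNAAN, a form of the site bound by ATF4 with CHOP or C/EBP factors, occurred in Herpud1 alone among the 26 genes and in 3.44% of all promoters. Hyou1, Manf, Atf6 and Derl1 were not searched.

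Of the 29 genes with a probe, 25 exceeded, on all 6 arrays, the brightest probe for a Y-linked gene. Y-linked probes served as background because Xist was bright in every sample (55746 to 88070). The 4 others were Manf, Atf6, Derl1 and Canx. Derl1 and Canx lay below the filter on dim probes and were not tested, which left 27 genes of 11868 tested over the whole array. The spread over the 6 arrays was small: the median coefficient of variation was 15.4% for the 27 genes and 15.6% for all tested genes.

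None of the 27 ER genes differed between knockout and wild type mucosa past the threshold (limma, Benjamini-Hochberg adjusted p under 0.05 over all 22640 tested probes). Over all tested genes, 0.00843% passed as higher and 0.0% as lower. Lasp1 itself, the deleted gene, was thus not called lower by this test, although its signal was lower in every knockout sample. The lack of a call for an ER gene is limited in the same way. At an unadjusted p under 0.05 there were 2 ER genes, Eif2ak3 higher (2.1% of all tested genes) and Sel1l lower (0.0758%). The same 2 were the only ER genes whose groups did not overlap, where 6.66% of all tested genes lay wholly higher and 0.817% wholly lower. After quantile normalization, which sets all arrays to the same distribution, no ER gene lay wholly higher (2.87% of all tested genes), and Atf6 and Sel1l lay wholly lower (3.44%). Atf6 read at background, and its second probe differed by 0.11 on that scale. Of the 27 genes 22 had a higher mean in the knockout, or 81.5%, against 79.5% of all tested genes. The median log2 difference, knockout minus wild type, was 0.07 for the ER genes and 0.12 for all tested genes. On the quantile scale 8 of 27 ER genes were higher (29.6%, against 50.6% of all tested genes) and the median was -0.05, against 0.00 for all.

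The intervals show what size of intensity difference these arrays could hide. With no background subtracted, they do not bound the change in transcript for dim genes such as Manf and Atf6. For each of the 27 genes the 95% interval of the difference lay within 2-fold in either direction, as it did for 91.5% of all tested genes. With cyclic loess this held for 25 of 27 (lowest bound -1.04), and for 26 of 27 without knockout replicate 1 or without wild type replicate 2 (highest bound 1.06 in the latter). The outermost bounds were a log2 difference of -0.76 for Herpud1 and 0.87 for Calr. Array weights gave wild type replicate 2 a weight of 38.8 and no other array more than 1.6. In that fit 1816 of the 22640 tested probes passed. Among them were the brightest probes of 4 of the 27 ER genes (limma adjusted p of 0.0375 for Atf4, 0.0411 for Eif2ak3, 0.0421 for Sel1l and 0.0476 for Dnajc3). The share of all tested genes was not counted for this fit.

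**Figure D1:**
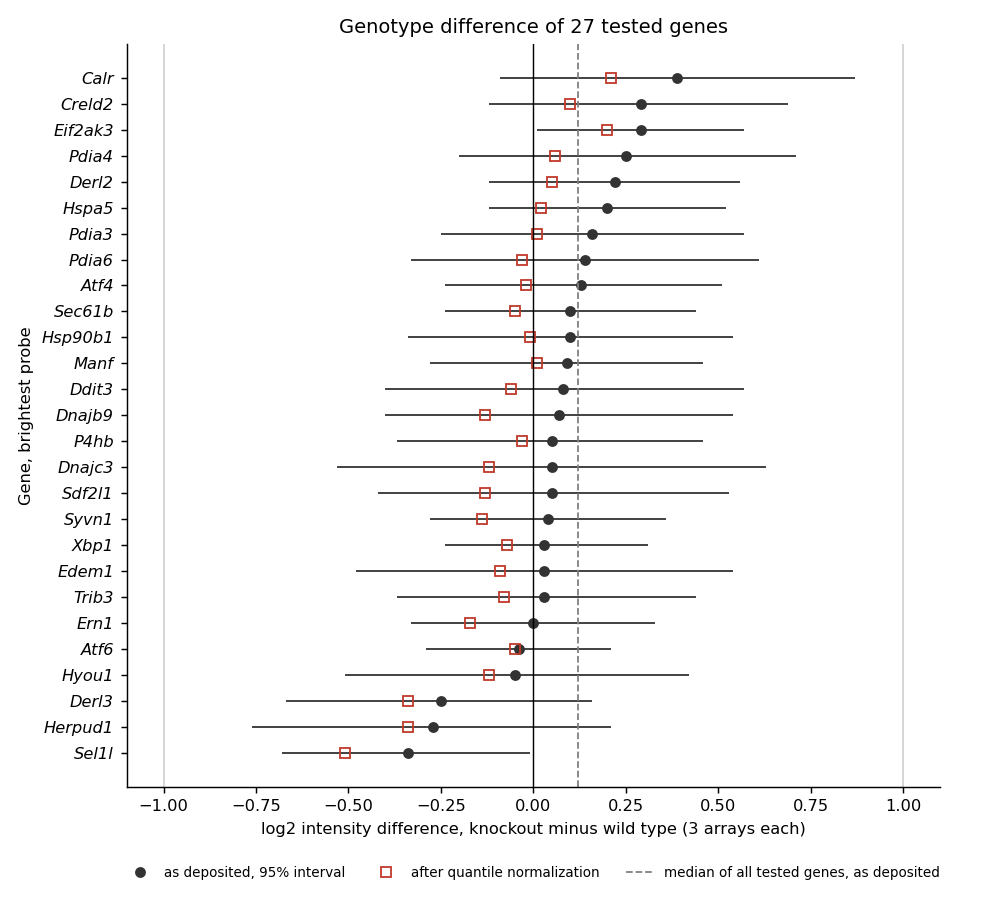
Log2 intensity difference, knockout minus wild type (x axis, 3 arrays each), for the 27 tested ER genes ordered by size. Filled circles with bars are the deposited values with 95% intervals, open squares the values after quantile normalization, the dashed line is the median of all tested genes (0.12), and the pale lines mark 2-fold. Every bar lies inside the pale lines, and only the bars of Eif2ak3 and Sel1l miss 0.

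Among the chaperones, the general ER chaperone BiP (gene Hspa5) read 7087, 8792 and 7290 in wild type and 9112, 8159 and 9207 in knockout samples, here and throughout in the order of replicates 1 to 3. The groups overlapped, and the log2 difference was 0.20 (SE 0.13, limma adjusted p = 0.994). Its partner GRP94 (gene Hsp90b1) read 140879, 149623 and 145854 in wild type and 122496, 198272 and 156955 in knockout samples. The 3 wild type values lay between the lowest and the highest knockout value (log2 difference 0.10, SE 0.19, limma adjusted p = 0.994). Calreticulin (gene Calr), the soluble lectin chaperone of glycoproteins, had the largest positive difference of the 27 genes. It read 6735, 7919 and 5790 in wild type and 6836, 10499 and 9617 in knockout samples. Knockout replicates 2 and 3 lay above every wild type array and knockout replicate 1 lay among them (log2 difference 0.39, SE 0.20, 95% interval -0.09 to 0.87, limma adjusted p = 0.994, exact permutation p = 0.2).

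The cochaperones had differences near 0. Dnajc3 (also called p58IPK), a J-domain partner of BiP, read 12240, 10037 and 15924 in wild type and 9555, 14759 and 15290 in knockout samples. Within either genotype its arrays spread over more than 1.5 times, while the log2 difference between genotypes was 0.05 (SE 0.24), with the widest standard error of the 27. Dnajb9 (ERdj4), a J-domain protein that takes misfolded clients toward degradation, read 33713, 34024 and 21520 against 31979, 28734 and 30824. Wild type replicate 3 stood alone at the low end, and the log2 difference was 0.07 (SE 0.20). A second Dnajb9 probe gave 0.02. Sdf2l1, a component of the BiP cochaperone complex, read 8047, 7934 and 8329 against 6155, 9698 and 9953. Its wild type arrays lay close together, with 1 knockout array below them and 2 above (log2 difference 0.05, SE 0.20). Hyou1 (GRP170), the nucleotide exchange factor of BiP, differed by -0.05 (SE 0.20), with its lowest value, 1319, again on wild type replicate 3.

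The 4 protein disulfide isomerases, which form and rearrange disulfide bonds, all had a higher mean in the knockout, as did 79.5% of all tested genes. Their log2 differences were 0.05 to 0.25. After quantile normalization 2 of the 4 were higher, against 50.6% of all tested genes. P4hb (PDI itself) read 196575, 182978 and 201974 in wild type and 156097, 236591 and 216818 in knockout samples (log2 difference 0.05, SE 0.18). Pdia4 (ERp72) read 21426, 21352 and 14961 against 18990, 24128 and 25374, the largest difference of the 4 (0.25, SE 0.19, limma adjusted p = 0.994). Its groups overlapped. Without wild type replicate 3, the lowest array, the difference of Pdia4 was 0.08. Pdia3 (ERp57), which works with calreticulin on glycoproteins, differed by 0.16 (SE 0.17), and Pdia6 by 0.14 (SE 0.20). A second, dim Pdia6 probe differed by -0.02.

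Creld2 and Manf encode small luminal proteins induced by ER stress. Creld2 read 21008, 24409 and 24272 on the wild type and 22442, 31014 and 32359 on the knockout arrays. As for Calr, knockout replicates 2 and 3 lay above all wild type arrays and knockout replicate 1 did not (log2 difference 0.29, SE 0.17, limma adjusted p = 0.994). Its second probe also gave 0.29. Manf lay near background (1097 to 1480) with a log2 difference of 0.09 (SE 0.16).

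The sensors and transcription factors had a median standard error of 0.14, the smallest of the role groups. Ern1, the sensor that splices the Xbp1 message, read 15546, 15246 and 13396 in wild type and 16412, 15065 and 12900 in knockout samples. Its log2 difference was 0.00 (SE 0.14, 95% interval -0.33 to 0.33). Xbp1, the transcription factor that this splicing activates, read 154584, 133682 and 143696 against 139331, 153101 and 149683. The 2 groups lay within one another, with a ratio of highest to lowest array of 1.16 and a log2 difference of 0.03 (SE 0.12, 95% interval -0.24 to 0.31). The deposited probe does not tell spliced from unspliced Xbp1 by name, so splicing was not analysed here. Atf6, the sensor released by cleavage in the Golgi, read at background (1070 to 1146), where its difference of -0.04 (SE 0.11) does not measure the transcript. A second Atf6 probe, also at background (844 to 1150), differed by 0.10 (SE 0.14).

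Eif2ak3, the sensor kinase that slows translation, was the one ER gene to lie wholly higher in the knockout. It read 1427, 1485 and 1424 in wild type and 1611, 1787 and 1904 in knockout samples. The log2 difference was 0.29 (SE 0.12, 1.22-fold, unadjusted p = 0.0446, limma adjusted p = 0.994). The exact permutation p was 0.1, below which a comparison of 3 with 3 arrays cannot go. The second Eif2ak3 probe differed by -0.11 (SE 0.14), with 1427, 1415 and 1151 against 1135, 1261 and 1280, so the probes of this gene disagreed in sign. Both were dim, and each is annotated with a different transcript sequence.

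Downstream of PERK, the factor ATF4 (gene Atf4) read 71153, 50809 and 68882 in wild type and 72570, 67949 and 66817 in knockout samples. On this probe wild type replicate 2 was low and the other 5 arrays lay close together (log2 difference 0.13, SE 0.16). The second Atf4 probe did not share that pattern, with 17540, 12484 and 12139 against 13953, 17379 and 17118 (log2 difference 0.21, SE 0.18). The proapoptotic factor CHOP (gene Ddit3) read 3497, 3611 and 2283 against 3431, 2858 and 3475. Wild type replicate 3 was the lowest of the 6, and the log2 difference was 0.08 (SE 0.20), with -0.02 on the second probe. Trib3, a pseudokinase induced by ATF4 and CHOP, differed by 0.03 (SE 0.17).

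The degradation genes held the largest negative differences, and 3 of their 6 tested members had a higher mean in the knockout, against 79.5% of all tested genes. After quantile normalization 1 of the 6 was higher (median -0.24), against 50.6% of all tested genes. Sel1l, the adaptor of the HRD1 ubiquitin ligase, read 23998, 23576 and 27936 in wild type and 22748, 18733 and 18226 in knockout samples. The groups did not overlap, although knockout replicate 1 lay only just under the lowest wild type value. The log2 difference was -0.34 (SE 0.14, 95% interval -0.68 to -0.01, unadjusted p = 0.0469, limma adjusted p = 0.994, exact permutation p = 0.1). Its 3 other probes also had negative differences of -0.14, -0.28 and -0.28, and for 1 of them (2160, 2138 and 2571 against 1803, 1858 and 1979) the groups did not overlap. In the remaining probes wild type replicate 3 stood at 152% and 184% of the mean of the other wild type arrays. Within the arrays numbered 1 to 3 in their titles, those probes differed by 0.01 and -0.03. After quantile normalization the difference of the brightest probe was -0.51, without wild type replicate 3 it was -0.26, and it was -0.06 within the arrays numbered 1 to 3 in their titles and -0.60 within those numbered 4 to 6.

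Syvn1, the HRD1 ligase with which SEL1L works, read 54958, 61929 and 50197 in wild type and 62542, 52638 and 56510 in knockout samples, with a log2 difference of 0.04 (SE 0.13). As deposited the 2 partners thus had values of different sign. Syvn1 was also negative after quantile normalization (-0.14) and without wild type replicate 3 (-0.03). The difference between the 2 partners was not tested. Herpud1, a stress-induced membrane protein that recruits the same ligase, read 222709, 190194 and 251137 against 166029, 151271 and 239910. Knockout replicates 1 and 2 lay below every wild type array, whereas knockout replicate 3 lay near the top (log2 difference -0.27, SE 0.21, limma adjusted p = 0.994). Its second probe gave -0.28, and without knockout replicate 3 the difference was -0.47. The derlins form part of the retrotranslocation machinery. Derl3, the most tissue-restricted of them, read 1654, 1633 and 1833 against 1116, 1687 and 1546, with knockout replicate 1 the lowest. Its log2 difference was -0.25 (SE 0.18), and -0.08 without that array. Derl2 differed by 0.22 (SE 0.15) and 0.23 on its 2 brighter probes. Edem1, a mannosidase-like lectin that marks glycoproteins for degradation, differed by 0.03 (SE 0.22), from 1468 on knockout replicate 1 to 2598 on knockout replicate 3.

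Sec61b, a subunit of the translocation channel, read 2838, 2642 and 2833 in wild type and 2637, 3539 and 2798 in knockout samples (log2 difference 0.10, SE 0.15). Of the 2 untested genes, Canx, the membrane-bound lectin chaperone calnexin, read 803 to 908 over the 6 arrays, and Derl1 at most 973 on its brighter probe. Both lay at background, so these values are only a bound on the transcripts.

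Single arrays differed in how many ER genes they held at either extreme. On the deposited scale, wild type replicate 3 was the lowest of the 6 arrays for 67.3% of all tested genes, but for 9 of the 27 ER genes, and the highest for 4.71% of all genes and for 4 ER genes. The 4 were Dnajc3, Herpud1, Sel1l and Derl3. Wild type replicate 1 was the highest array for 4 ER genes (14.8%, against 30.2% of all tested genes), knockout replicate 2 for 6 (22.2%, against 22.2%) and knockout replicate 3 for 8 (29.6%, against 11.1%). Wild type replicate 3 lay above both other wild type arrays for 9 ER genes (33.3%, against 10.7% of all tested genes) and below both for 11 (40.7%, against 76.1%). Its median log2 value against the mean of the other 2 wild type arrays was -0.00 for the ER genes and -0.35 for all tested genes. After quantile normalization it was the highest array for 15 of 27 ER genes (55.6%, against 23.8% of all tested genes) and above both other wild type arrays for 19 (70.4%, against 39.8%), and below both for 5 (18.5%, against 40.7%). As deposited this array was thus the highest for a minority of the ER genes, and with quantile normalization or cyclic loess (17 of 27) for most of them.

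Wild type replicate 3 was the array with the most pancreatic transcripts, and knockout replicate 3 held the next most. A further fit took the mean log2 value of the pancreatic acinar genes on each array as a covariate. There the median log2 difference, knockout minus wild type, was 0.08 for the ER genes and 0.03 for all tested genes. In that fit 0 ER genes passed the threshold. The part of pancreatic transcripts in the ER values of single arrays was not tested. The ER genes did not all take the same position on wild type replicate 3. Dnajc3 stood at 143% of the mean of the other 2 wild type arrays on the deposited scale, Manf at 125% and Herpud1 at 122%. Dnajb9 stood at 63.5%, Ddit3 at 64.2%, Hyou1 at 64.7% and Pdia4 at 69.9%, and of these Dnajb9, Ddit3 and Hyou1 stayed below both other wild type arrays after quantile normalization. Hspa5 stood at 91.8% and Xbp1 at 99.7%. Bhlha15 (MIST1), a transcription factor of chief and acinar cells that promotes their secretory machinery, read 40856 on wild type replicate 3 and 14419 to 23420 on the others. The listed plasma cell markers included the immunoglobulin genes Igkc and Ighm, which had no named probe and were not measured. Of 7 plasma cell markers with a probe, Jchain, Irf4, Prdm1 and Tnfrsf17 did not pass the filter on dim probes and read at most 1011 on any array. Mzb1 (923 to 1094) and Pou2af1 (847 to 1186) passed near background. Sdc1, which epithelia also express, read 4003 on wild type replicate 3 and 7512 to 9090 on the others, and the sum of the list was 9390 on that array and 13252 to 14827 on the others.

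Knockout replicate 1 stood at the other end. It was the lowest array for 8 of 27 ER genes (29.6%, against 7.57% of all tested genes) on the deposited scale. After quantile normalization it was the lowest for 12 (44.4%, against 21.4%) and the highest for none, against 17.7% of all tested genes. Hsp90b1, Pdia6, P4hb, Dnajc3, Sdf2l1, Derl3, Edem1 and Sec61b were lowest there on both scales. The median deviation of the ER genes from their own means was -0.08 on this array, where all tested genes had 0.11. The squamous and smooth muscle transcripts given above were also highest on this array, and their part in the low ER values was not tested. Without knockout replicate 1 the median log2 difference of the ER genes, knockout minus wild type, was 0.17 in place of 0.07, and all tested genes had 0.08.

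**Figure D2:**
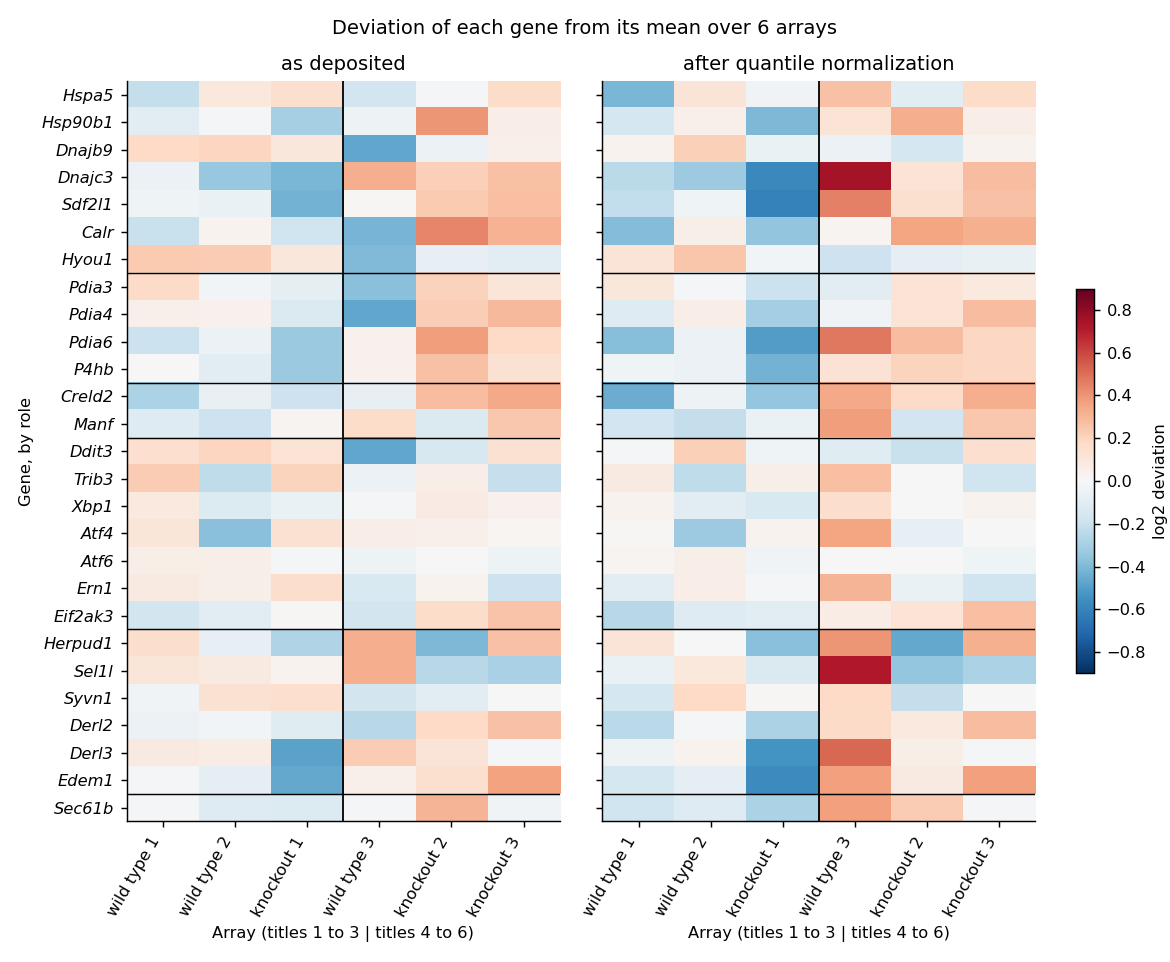
Log2 deviation (colour) of each of the 27 tested ER genes from its own mean over the 6 arrays, as deposited (left) and after quantile normalization (right). Rows are genes grouped by role between horizontal lines, and columns are arrays, with those numbered 1 to 3 in their titles left of the vertical line and those numbered 4 to 6 right of it. Knockout 1 is blue for most folding genes, wild type 3 is mixed as deposited and mostly red after quantile normalization, where it was highest for 15 genes.

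Arrays whose titles carry the numbers 1 to 3 (knockout replicate 1 with wild type replicates 1 and 2) also differed from those numbered 4 to 6, and the labels do not say what the number means. Pdia6, P4hb, Dnajc3, Sdf2l1 and Edem1 read higher on every array numbered 4 to 6 than on any numbered 1 to 3, which held for 18.5% of the ER genes and 3.74% of all tested genes. After quantile normalization this held for 10 ER genes (37.0%, against 15.6%). Dnajb9, Hyou1 and Ern1 read lower on every array of the second set (11.1%, against 19.5% of all tested genes), and after quantile normalization Hyou1 alone did (3.7%, against 14.1%). Within the first set the median knockout minus wild type difference of the ER genes was -0.07 (all tested genes 0.05), and within the second it was 0.21 (all tested genes 0.33). Each of these rests on 1 array of one genotype, knockout replicate 1 in the first set and wild type replicate 3 in the second. Both carried transcripts of other tissues, as did wild type replicate 2 in the first set and, to a lesser degree, knockout replicate 3 in the second. The difference turned sign between the sets for most of the ER genes, and the share over all tested genes was not counted. Examples are Calr (-0.10 and 0.80), Pdia4 (-0.17 and 0.73), Pdia3 (-0.16 and 0.54), Derl2 (-0.07 and 0.47), Hsp90b1 (-0.25 and 0.27), Sdf2l1 (-0.38 and 0.24) and Edem1 (-0.42 and 0.21). Fewer kept their sign, among them Hspa5 (0.21 and 0.25), Herpud1 (-0.31 and -0.40), Eif2ak3 (0.15 and 0.37), Sel1l (-0.06 and -0.60) and Derl3 (-0.56 and -0.18). With the set as a block, no ER gene passed (limma adjusted p of 0.399 or more) and the median difference was 0.07, with 0.20 for all tested genes.

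**Figure D3:**
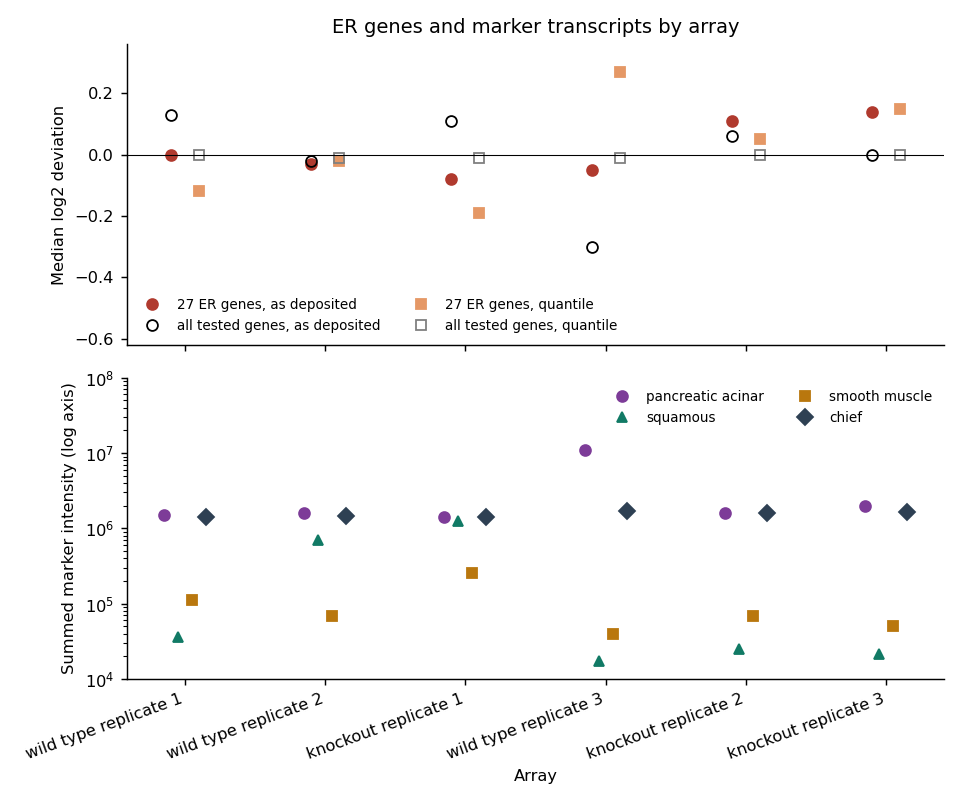
Upper panel: median log2 deviation from each gene's mean (y axis) on each array for the 27 ER genes (filled) and all tested genes (open), as deposited (circles) and after quantile normalization (squares). Lower panel: summed intensity, on a log axis, of marker genes of pancreatic acinar, squamous, smooth muscle and chief cells on the same arrays. On wild type replicate 3 the filled symbols lie above the open ones and the pancreatic sum is highest, at 11058895, while on knockout replicate 1 they lie below and the squamous sum is highest, at 1250836.

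Of the genes whose promoters held the ERSE, 8 were tested and had a median log2 difference of 0.12 (7 of 8 higher), and the 16 tested genes whose searched promoter held no match had 0.06 (14 of 16 higher). Over all tested genes 79.5% were higher. After quantile normalization the medians were -0.02 and -0.06, with 3 of 8 and 4 of 16 higher, against 50.6% of all tested genes. Within the matched genes the values ran from 0.39 for Calr, with its match on the opposite strand, to -0.25 for Derl3.

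Other genes of the secretory pathway were read from 6 lists written by role. Of 120 tested genes in these lists, none passed the threshold, 2 had an unadjusted p under 0.05, 91 were higher and 29 lower in the knockout, and the median log2 difference was 0.12, equal to that of all tested genes, of which 79.5% were higher. After quantile normalization 54 of the 120 were higher (median -0.02), against 50.6% of all tested genes. All 18 tested genes of N-glycosylation, which builds and trims the sugar chains that calreticulin reads, had a higher mean (median 0.14), but 11 of 18 after quantile normalization (median 0.02). The smallest p-values among them were those of the oligosaccharyltransferase genes Ostc (0.25, SE 0.13) and Dad1 (0.26, SE 0.15) and of the glucosidase Mogs (0.18, SE 0.12). Of 21 genes of translocation and signal peptide cleavage 16 were higher (median 0.09), and 6 after quantile normalization (median -0.05). The smallest p-values were those of Sec63 (0.27, SE 0.12), Sec61g (0.20, SE 0.12) and Srp14 (0.20, SE 0.14). Of 26 further folding enzymes 19 were higher (median 0.12), and 12 after quantile normalization (median -0.02), with the smallest p-values for Txndc12 (ERp18; 0.33, SE 0.14), Pdia5 (0.34, SE 0.18) and the dim Ero1a (0.24, SE 0.13). Of 19 further degradation genes 16 were higher (median 0.14), and 9 after quantile normalization (median -0.01). Smallest in p-value there were Selenok (0.27, SE 0.13), the ligase gene Rnf5 (0.25, SE 0.14) and Aup1 (0.21, SE 0.13).

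Targets of PERK and ATF4 spread more widely. Of 23 tested genes 11 were higher and 12 lower, with a median of -0.00, where 79.5% of all tested genes were higher. After quantile normalization 6 were higher (median -0.13), against 50.6% of all tested genes. Atf3, a stress-induced factor that is also an immediate early gene, read 6133, 5290 and 3812 in wild type and 6916, 15568 and 7218 in knockout samples. Each knockout value exceeded every wild type value, as held for 6.66% of all tested genes. Knockout replicate 2 stood far above the others (log2 difference 0.88, SE 0.34, unadjusted p = 0.0375, limma adjusted p = 0.994). Cebpg, a partner of ATF4, differed by 0.47 (SE 0.19, unadjusted p = 0.0456, limma adjusted p = 0.994), and its groups overlapped. Atf5 differed by -0.54 (SE 0.28). Of 13 secretory transcription factors and membrane stress factors 11 were higher (median 0.21), and 10 after quantile normalization (median 0.08). Their smallest p-values belonged to Atf6b, a relative of ATF6 (0.28, SE 0.18), to Bhlha15 (-0.51, SE 0.35), which was highest on wild type replicate 3, and to Wfs1 (0.21, SE 0.14).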

How the data were processed

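Biotin-labelled cRNA (Ambion MessageAmp kit, per the labels' protocols) of 6 samples was hybridised to Illumina arrays. The deposited table holds 1 linear probe intensity per array for 45281 probes. The values show that the authors scaled each array to a median of 1000 without background subtraction. The sources used here do not give the scanner, software or genome build. Groups came from the sample titles.

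Probes were named from the platform annotation (34885 with 1 symbol), updated through the gene identifier. Intensities were log2 transformed as deposited, and the 22640 probes above the median probe by mean log2 value were tested with lmFit and eBayes of limma 3.58.1 (R 4.3.3), two-sided, with Benjamini-Hochberg adjustment over all of them. A gene is given by its brightest probe, and 95% intervals are limma's. The test was checked on simulated data. Exact permutation tests compared the 3 against 3 arrays. Alternatives were other normalizations, filters, probe rules, blocks, a pancreatic covariate, array weights and left-out arrays. The number of arrays limits the precision. All 30 members are named, with up to 3 genes of smallest p of each further list. Members and lists were chosen with earlier results of these data known, and the motifs and the comparisons between single arrays after the values were seen. Motif matches are of exact letters, and figures were drawn with matplotlib 3.10.9.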

Additional observations from a re-analysis of the deposited data

How the results depend on the processing

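Signal over background limits Manf, Atf6, Derl1 and Canx most, and other dim genes such as Eif2ak3 and Derl3 in part. The 3 arrays a group limit every gene. No ER gene passed the threshold under any alternative except array weights (4 genes: Dnajc3 0.49, Atf4 0.42, Eif2ak3 0.28 and Sel1l -0.31). With array weights 1816 of the 22640 tested probes passed. The median difference of the ER genes was 0.20 with array weights and turned to -0.05 after quantile normalization, with or without normexp, and to -0.07 with cyclic loess, where the median of all tested genes was 0.00 or -0.00. The replicate block left it at 0.07 with 0 genes past the threshold. The labels do not say whether arrays of the same replicate number belong together. Deviations of same-numbered arrays correlated at 0.04, -0.3 and 0.53, and those of differently numbered arrays at -0.56 to 0.55, which cannot settle it. The median difference was 0.01 without knockout replicate 2 and 0.17 without knockout replicate 1, the range over leaving out each array, and 0 genes passed in each. The count of ER genes highest on wild type replicate 3 was 15 of 27 after quantile normalization, 15 with normexp and 17 with cyclic loess, in place of 4.

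Single genes near 0 changed sign, none past the threshold. After quantile normalization these were Hsp90b1 (-0.01), Pdia6 and P4hb (-0.03 each), Dnajb9 and Sdf2l1 (-0.13 each), Dnajc3 (-0.12), Ddit3 (-0.06), Trib3 (-0.08), Xbp1 (-0.07), Atf4 (-0.02), Ern1 (-0.17), Syvn1 (-0.14), Edem1 (-0.09) and Sec61b (-0.05). With normexp the same 14 did, with other values for Ddit3 (-0.05), Trib3 and Edem1 (-0.07 each). With cyclic loess they were joined by Pdia3 (-0.02), at -0.07 for Hsp90b1, Trib3 and Edem1, -0.02 for Pdia6, -0.13 for P4hb and Dnajc3, -0.12 for Dnajb9 and Sdf2l1, -0.06 for Ddit3, -0.14 for Xbp1 and Syvn1, -0.05 for Atf4, -0.18 for Ern1 and -0.03 for Sec61b. Array weights turned Hspa5 (-0.02), Dnajb9 (-0.19), Ddit3 (-0.20), Ern1 (-0.08) and Syvn1 (-0.16). The title-number block turned P4hb (-0.06), Dnajc3 (-0.15), Sdf2l1 (-0.07), Edem1 (-0.10) and Hyou1 (0.09). The pancreatic covariate turned Dnajb9 (-0.09), Ddit3 and Ern1 (-0.07 each) and Syvn1 (-0.01), and the mean of probes Atf6 (0.03) and Ern1 (-0.05). Without both replicates 3, Pdia3 (-0.01), Dnajb9 (-0.16), Sdf2l1 (-0.05), Ddit3 (-0.18), Syvn1 (-0.02) and Edem1 (-0.12) did. Leaving out single arrays gave ranges that crossed 0 for Hsp90b1 (-0.07 to 0.28), Pdia6 (-0.01 to 0.35), P4hb (-0.07 to 0.23), Dnajb9 (-0.15 to 0.18), Dnajc3 (-0.11 to 0.26), Sdf2l1 (-0.07 to 0.28), Manf (-0.01 to 0.20), Ddit3 (-0.13 to 0.20), Trib3 (-0.07 to 0.16), Hyou1 (-0.26 to 0.06), Xbp1 (-0.02 to 0.09), Atf4 (-0.02 to 0.22), Ern1 (-0.08 to 0.10), Syvn1 (-0.03 to 0.12), Edem1 (-0.14 to 0.27) and Sec61b (-0.03 to 0.18). Hspa5, Pdia3, Pdia4, Creld2, Calr, Atf6, Eif2ak3, Derl2, Sel1l, Herpud1 and Derl3 kept their sign without any single array and under quantile normalization, but not their size. Quantile normalization gave 0.02 in place of 0.20 for Hspa5, 0.01 in place of 0.16 for Pdia3, 0.06 in place of 0.25 for Pdia4, 0.05 in place of 0.22 for Derl2, 0.10 in place of 0.29 for Creld2, 0.21 in place of 0.39 for Calr and -0.51 in place of -0.34 for Sel1l. Pdia4 was 0.00 without both replicates 3. The cause of these changes was not tested.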
